A study of Homo sapiens with 28 samples.

Results

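The human mitochondrial genome carries 37 genes, and all 37 were present among the 58278 genes counted in this RNA-seq series. They were chosen by symbol, as every gene whose name begins with MT-, and comprise 13 mRNA genes, 2 rRNA genes and 22 tRNA genes. HCT116, a long-established human line from a colorectal carcinoma, carried a Luciferase-GFP reporter here and was implanted under the skin of male NOD/SCID mice aged 5 weeks, which lack mature B and T cells but keep their own stroma and blood vessels. Starting 8 days after implantation, the mice were gavaged daily for 23 days. Control mice received vehicle, Palbociclib mice 100 mg/kg/day of this inhibitor of the cell cycle kinases CDK4 and CDK6, and Telaglenastat mice (Telaglenestat in the labels) 150 mg/kg/day of this inhibitor of glutaminase, the enzyme that turns glutamine into glutamate. Combination mice received both drugs at these doses. The residual tumors gave 3 Control, 5 Palbociclib, 4 Telaglenastat and 4 Combination libraries. Cell lines grown from residual tumors in monolayer without drugs gave 3 libraries for each of the same treatments, and the tumor that each line came from is not recorded in the labels.

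Mitochondrial DNA is a small circle that is transcribed from both strands as long precursors, from which tRNAs are cut out to release most of the mRNAs and rRNAs. Its 13 mRNAs encode core subunits of respiratory complexes I, III and IV and of the ATP synthase (complex V), its rRNAs build the mitochondrial ribosome, and its tRNAs serve translation inside the organelle. All other subunits of these complexes, the whole of complex II and the enzymes that copy, transcribe and degrade mitochondrial nucleic acids are encoded in the nucleus. Glutamate derived from glutamine feeds the tricarboxylic acid cycle, which supplies the respiratory chain with electrons.

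The sequences that matter for reading these counts are the places where transcripts share bases or where a gene is hardly longer than a read. They are given from the GENCODE release 29 transcripts on GRCh38 (hg38), 5′ to 3′. MT-ATP8 and MT-ATP6, both subunits of ATP synthase, share 46 bases at chrM:8527-8572 on the plus strand, shown in capitals at the end of the first (chrM:8513-8572) and at the start of the second (chrM:8527-8586). MT-ND4L and MT-ND4, subunits of complex I, share 7 bases at chrM:10760-10766, in capitals at the end of MT-ND4L (chrM:10737-10766). Each of these couples is carried on 1 bicistronic mRNA.
MT-ATP8: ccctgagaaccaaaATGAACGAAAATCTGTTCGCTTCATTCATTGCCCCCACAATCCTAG
MT-ATP6: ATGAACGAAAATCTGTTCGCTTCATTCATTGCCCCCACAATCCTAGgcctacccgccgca
MT-ND4L: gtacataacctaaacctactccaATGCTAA
The libraries were made from poly(A) RNA, so the 3′ ends also bear on the counts. The annotated lengths of 6 of the 13 mRNA genes (MT-ND1, MT-ND2, MT-ND3, MT-ND4, MT-CYB and MT-CO3) are not multiples of 3, because the poly(A) tail completes their stop codon. Capitals mark the bases after the last sense codon in MT-ND1 (chrM:4239-4262) and MT-CYB (chrM:15864-15887), and for comparison the full stop codon of MT-CO2 (chrM:8246-8269), all on the plus strand.
MT-ND1: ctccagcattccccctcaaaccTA
MT-CYB: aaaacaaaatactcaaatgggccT
MT-CO2: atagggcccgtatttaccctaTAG
The tRNA genes are short beside the 60-base reads. The most counted tRNA was MT-TN, for asparagine (chrM:5657-5729, minus strand, 73 bases), followed in size of total among those shown by MT-TE, for glutamate (chrM:14674-14742, minus strand, 69 bases), which adjoins MT-ND6. The least counted was MT-TS2, for the serine codons AGY (chrM:12207-12265, plus strand, 59 bases), which is shorter than a read and held 3 counts over all 28 libraries.
MT-TN: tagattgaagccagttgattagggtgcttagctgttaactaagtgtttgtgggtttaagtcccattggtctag
MT-TE: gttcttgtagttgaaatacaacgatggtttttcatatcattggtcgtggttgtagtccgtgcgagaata
MT-TS2: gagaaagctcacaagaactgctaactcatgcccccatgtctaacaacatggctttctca

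Library totals ranged from 6273834 to 10617936 counts in tumors and from 7198540 to 13815675 in cultures, so each mRNA and rRNA was counted deeply in every library. In Control tumors the totals were 7539298 to 8849414, in Telaglenastat tumors 6463239 to 6853368 and in Combination tumors 6741257 to 7218778. Of the 10 epithelial markers, 9 had a mean of at least 1 CPM (counts per 1000000 counts of the scaled library) in both tumors and cultures, CEACAM5 being at 0 in every culture. Among tumors, replicate 2 of Palbociclib and replicate 2 of Telaglenastat stood apart from their groups in the mitochondrial genes. The counts called for each single drug against Control are given with and without them. The study's methods describe injection on 1 flank of each mouse and independent cell lines for each treatment, while the labels do not name the mouse behind a tumor library, and p-values measure the spread between these libraries.

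Levels of the genes were compared per kilobase, on 1 scaling of all 28 libraries. In Control tumors, MT-CO3, the third subunit of complex IV, was the most abundant at 9254 ± 151 CPM per kilobase (SD, n = 3), followed by MT-CO1, the catalytic subunit of the same complex, at 8438 ± 468, MT-ATP6 at 7788 ± 97.1 and MT-CO2 at 6845 ± 116. The ranges of these 4 genes did not overlap. Reads counted on MTATP6P1, a nuclear copy of MT-ATP6, are not included in these levels. They came to 15.1 ± 0.56 per 100 counts of MT-ATP6, so its place below MT-CO1 depends on how such reads are assigned. MT-ND4 lay at 5740.4 ± 67.5 and the large rRNA MT-RNR2 at 5214 ± 296, and below them MT-CYB, the mitochondrial subunit of complex III, at 3224 ± 238 overlapped MT-ATP8 at 3021 ± 282. MT-ND3, MT-ND1, MT-ND4L, MT-ND2 and the small rRNA MT-RNR1 formed a cluster between 2123 and 2481 CPM per kilobase whose neighbours overlapped. MT-ND6, the only mRNA on the minus strand, followed at 1902 ± 107, and MT-ND5 was lowest of the mRNAs at 1607 ± 94.9. Genes read from the same precursor thus differed in counts per kilobase. The couples carried on 1 bicistronic mRNA differed as well, so counts per kilobase do not directly measure the number of molecules. The ratio was 0.39 ± 0.040 for MT-ATP8 to MT-ATP6 and 0.41 ± 0.019 for MT-ND4L to MT-ND4 (SD, n = 3). Poly(A) selection limits what the 2 rRNAs and the tRNAs show, since their tails are short or absent.

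**Figure D1:**
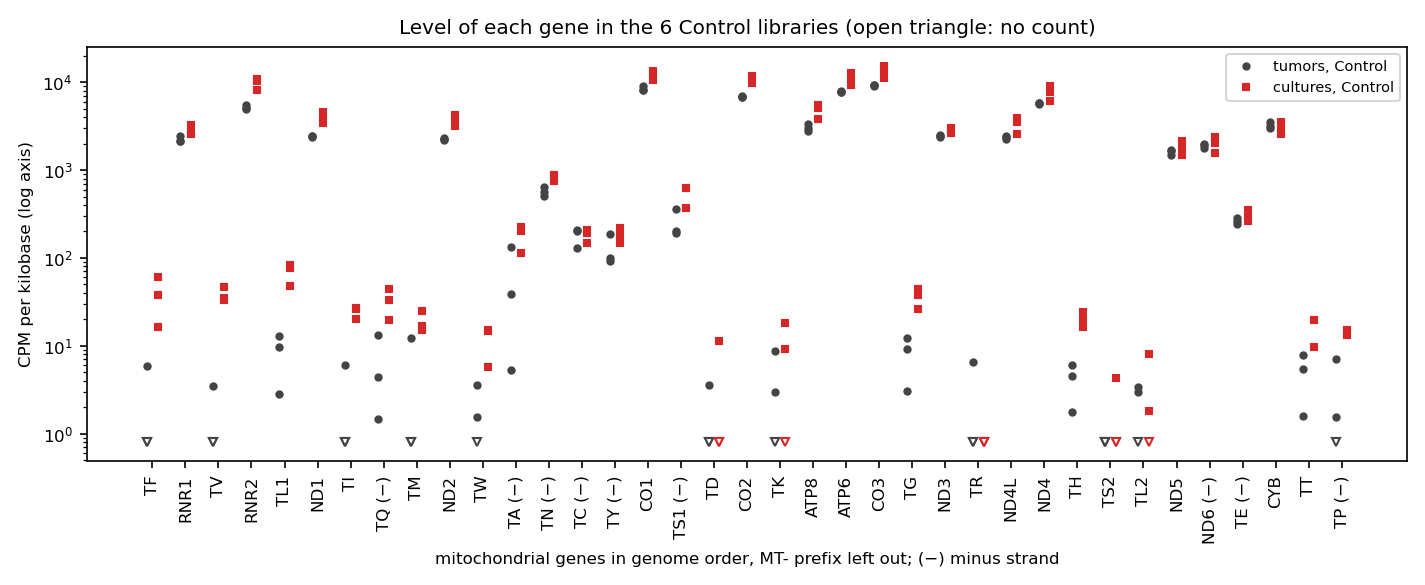
CPM per kilobase (log axis) of the 37 genes in genome order, with each of the 3 Control tumor libraries (dark circles) and 3 Control culture libraries (red squares) as a point, and open triangles for libraries with no count. The mRNAs and rRNAs lie above 1000, 6 minus-strand tRNAs (MT-TN, MT-TS1, MT-TE, MT-TC, MT-TY and MT-TA) hold most tRNA counts, and most plus-strand tRNAs are higher in cultures than in tumors.

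The tRNA counts were few and one-sided. The 8 minus-strand tRNA genes held 97.3% of all tRNA counts in tumors and 90.4% in cultures, and the 14 plus-strand genes the rest, with 652 counts over 16 tumors and 1762 over 12 cultures. Since the strand setting of counting is not given, reads of minus-strand tRNAs and antisense reads from plus-strand transcripts cannot be told apart. MT-TN alone had 356 to 1151 counts per tumor library. MT-TS1 (serine), MT-TE, MT-TC (cysteine), MT-TY (tyrosine) and MT-TA (alanine) followed in total, and MT-TA was the least even, with 3 to 283 counts per tumor library. A filter on low counts kept 8 tRNAs in tumors (these 6, MT-TL1 for leucine and MT-TT for threonine) and 16 in cultures, adding MT-TP, MT-TG, MT-TH, MT-TV, MT-TQ, MT-TM, MT-TI and MT-TF. The remaining 6, MT-TD, MT-TL2, MT-TR, MT-TK, MT-TW and MT-TS2, passed in neither and had 0 to 5 counts per tumor library and 0 to 14 per culture library.

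Combination tumors carried the largest share of their reads on mitochondrial genes. Of all counts, the 37 genes took 7.22%, 6.78% and 6.89% in the Control tumors and 14.8%, 13.9%, 14.1% and 13.2% in the Combination tumors, a ratio of means of 2.01. The groups did not overlap. In Palbociclib tumors the shares were 9.53%, 13.6%, 8.37%, 8.28% and 9.58%, each above every Control tumor, and only replicate 2 reached the range of the Combination tumors. In Telaglenastat tumors they were 8.91%, 6.23%, 8.93% and 9.07%, of which replicate 2 lay below the Control range. The share is bounded by the rest of the library, and against 100 nuclear counts Control tumors had 7.48 ± 0.26 mitochondrial counts (SD, n = 3) and Combination tumors 16.3 ± 0.90 (SD, n = 4). In the cultures no group stood apart, with 8.86 ± 1.17% in Control, 8.64 ± 0.29% in Palbociclib, 8.01 ± 2.17% in Telaglenastat and 8.63 ± 0.58% in Combination lines (SD, n = 3 each). In bulk RNA, more mitochondrial RNA per cell and less nuclear RNA per cell cannot be told apart.

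**Figure D2:**
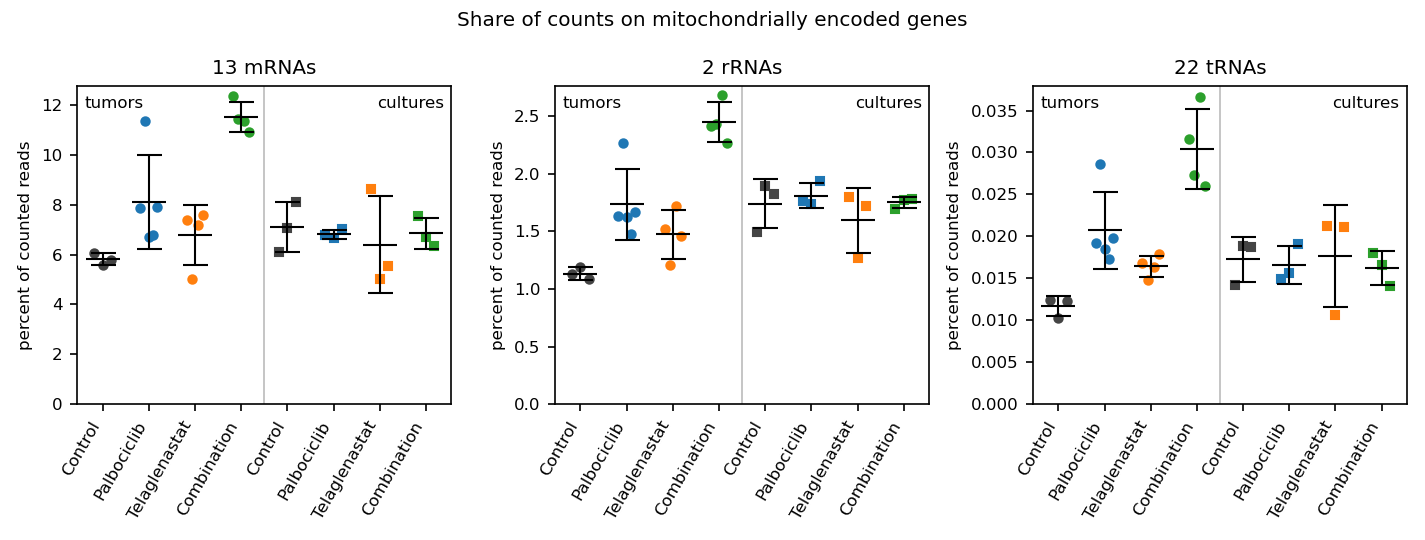
Percent of counted reads on the 13 mRNAs, 2 rRNAs and 22 tRNAs in each library, with tumors as circles, cultures as squares, and the mean and SD of each group in black. Combination tumors lie at 10.9 to 12.4% for mRNAs against 5.58 to 6.08% in Control tumors, while the 4 groups of cultures overlap.

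The first comparison asked how the drug pair altered these transcripts in the tumors that remained. All 13 mRNAs rose in Combination against Control tumors, with log2 fold changes from 0.98 to 1.43 and a median of 1.10, where the median of all 14848 tested genes was -0.04. Both rRNAs rose as well. Of the 22 tRNAs only 8 passed the filter, some of them mainly through the groups where they are high, and these 8 were also called higher, which brings the count to 23 members with none lower. In this comparison 44.5% of all tested genes were called, 17.6% as higher and 26.9% as lower.

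Complex I, the NADH dehydrogenase, has 7 mitochondrial subunits, and all were higher with a median log2 fold change of 1.13. MT-ND6 changed most among the mRNAs. Its level was 1116, 992 and 1094 CPM in Control tumors and 3163, 2791, 2899.8 and 2644 CPM in Combination tumors, a log2 fold change of 1.43 ± 0.20 (SE) with an adjusted p of 7.06e-06. MT-ND1, which lies next to the ubiquinone site, was at 2531, 2388 and 2513 CPM in Control and 5214, 5799, 5774 and 4945 CPM in Combination tumors, a log2 fold change of 1.13 ± 0.17 (adjusted p = 1.67e-05). Every Combination tumor lay above every Control tumor for both genes. The other members were MT-ND2 at 1.21, MT-ND5 at 1.22, MT-ND3 at 1.13, MT-ND4 at 1.10 and MT-ND4L at 1.07.

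All 3 mitochondrial subunits of complex IV, cytochrome c oxidase, rose. MT-CO1 was at 14849, 13337 and 13537 CPM in Control tumors, and at 32992, 29344, 28071 and 27942 CPM in Combination tumors, a log2 fold change of 1.09 ± 0.15 (adjusted p = 7.50e-06). MT-CO2 rose by 1.00 ± 0.17 and MT-CO3 by 1.10 ± 0.16 on the log2 scale. MT-CYB of complex III had the smallest change of the mRNAs, from 3877, 3656 and 4263 CPM in Control to 8675, 8014, 7200 and 7028 CPM in Combination tumors, a log2 fold change of 0.98 ± 0.20 (adjusted p = 0.00045). In the ATP synthase, MT-ATP6, which forms part of its proton channel, rose by 1.04 ± 0.19 and MT-ATP8 by 1.18 ± 0.20, and reads in the 46 shared bases cannot be assigned to 1 of them.

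The rRNAs moved with the mRNAs. MT-RNR2 was at 8504, 9188 and 8368 CPM in Control tumors and at 20910.3, 20958, 21622 and 18326 CPM in Combination tumors, a log2 fold change of 1.24 ± 0.15 (adjusted p = 1.48e-06), and MT-RNR1 rose by 1.15 ± 0.12 (adjusted p = 4.39e-07). The ratio of rRNA to mRNA counts was 19.5 ± 1.55 rRNA counts per 100 mRNA counts in Control and 21.3 ± 1.72 in Combination tumors. Its ranges overlapped, at 18.5 to 21.3 in Control and 19.5 to 23.6 in Combination tumors. Among the tRNAs, MT-TN rose by 1.32 ± 0.21, MT-TE by 1.38 ± 0.20, MT-TC by 1.5 ± 0.20, MT-TS1 by 1.51 ± 0.24 and MT-TY by 1.73 ± 0.26 on the log2 scale. These genes lie on the minus strand, and antisense reads from plus-strand transcripts cannot be told apart from theirs. MT-TA, MT-TL1 and MT-TT had larger estimates, 2.56, 2.15 and 2.11, with SEs of 0.83, 0.71 and 0.75. In Control tumors MT-TL1 was at 0.22 to 1.03 CPM and MT-TT at 0.11 to 0.55 CPM. MT-TL1 and MT-TT passed the filter through treated tumors, where they are high. Their direction was thus largely fixed by the filter, and their calls are a description. The call of 23 held when mitochondrial genes were left out of the library sizes, and with an offset for GC content and length 20 members were called, all 13 mRNAs among them with a median of 0.89.

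**Figure D3:**
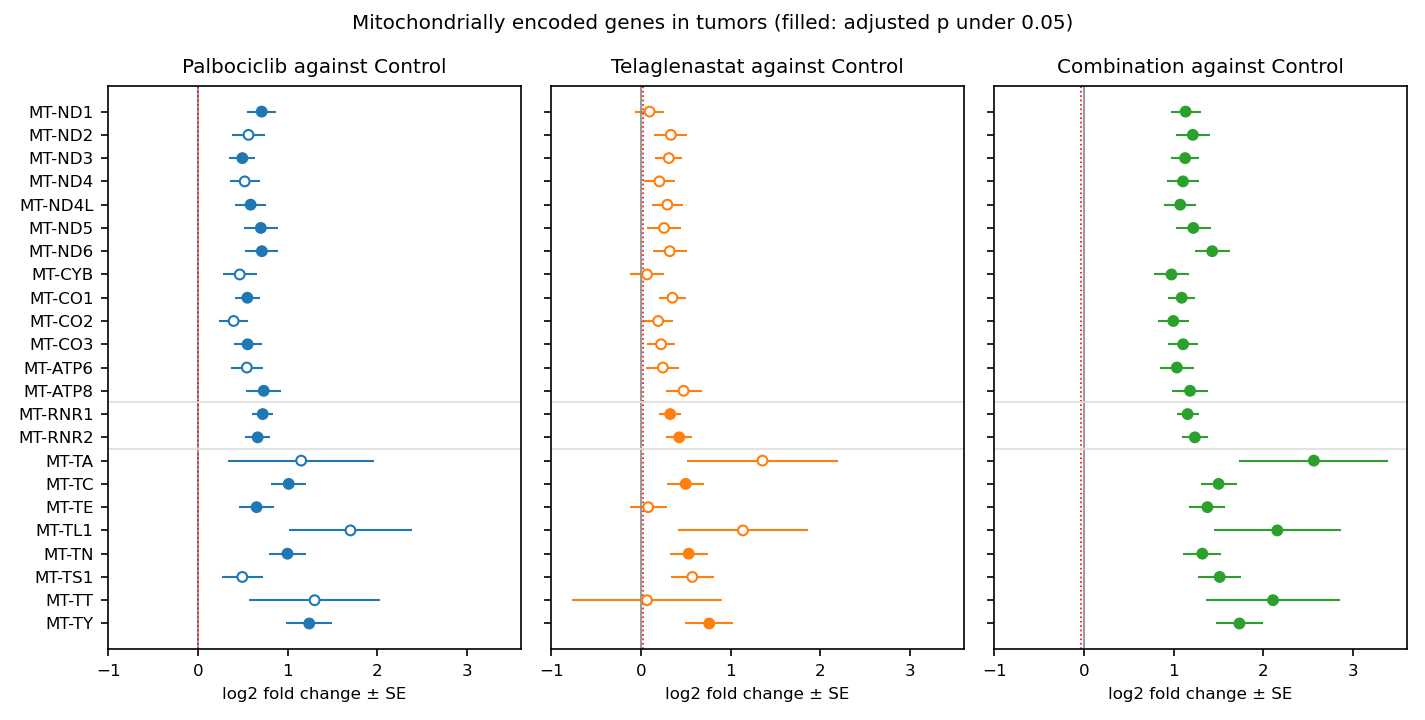
Log2 fold change against Control tumors, with SE as bars, of the 23 tested genes for Palbociclib, Telaglenastat and the Combination; filled points passed the adjusted p threshold and the red dotted line is the median of all tested genes. The mRNAs lie between 0.40 and 0.73 for Palbociclib, 0.07 and 0.48 for Telaglenastat, and 0.98 and 1.43 for the Combination.

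Palbociclib alone raised fewer members and by less. Of 23 tested members, 14 were called higher and none lower, against 6.16% of all tested genes called, 2.55% as higher and 3.6% as lower. They were 8 mRNAs, both rRNAs and 4 tRNAs, and the median log2 fold change of the 13 mRNAs was 0.55, where that of all genes was 0.00067. MT-RNR1 had the smallest adjusted p, with 2187, 2456 and 2172 CPM in Control and 3995, 4544, 3719.5, 3139 and 3344 CPM in Palbociclib tumors, which is 0.72 ± 0.12 on the log2 scale (adjusted p = 0.00049). MT-ND1 was at 4063, 5664, 3258, 3405 and 3890.1 CPM in Palbociclib tumors, all above the Control tumors given before, a rise of 0.71 ± 0.16 on the log2 scale (adjusted p = 0.0081). MT-CO1 was at 19876, 28989, 17481, 15864 and 19704 CPM, a log2 rise of 0.55 ± 0.14 (adjusted p = 0.021). Complex I contributed 5 called mRNAs of 7, complex IV 2 of 3 and the ATP synthase MT-ATP8, at 0.73 ± 0.19. MT-ND2, MT-ND4, MT-ATP6, MT-CO2 and MT-CYB were not called, with log2 fold changes of 0.56, 0.52, 0.55, 0.40 and 0.47 and adjusted p-values from 0.067 to 0.18.

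Replicate 2 was the highest Palbociclib tumor for every gene given here, and without it 12 members were called and the ratio of mean shares to Control fell from 1.42 to 1.28. The count also rests on the 3 Control tumors, as 6, 5 and 6 members were called without replicate 1, 2 and 3 of them, and 8 when all 28 libraries entered 1 fit.

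Telaglenastat alone gave the smallest differences. None of the 13 mRNAs was called, all 13 had positive log2 fold changes (0.07 to 0.48, median 0.26), and 2 of them had an unadjusted p under 0.05. Both rRNAs were called higher, MT-RNR2 by 0.43 ± 0.14 (adjusted p = 0.018) and MT-RNR1 by 0.33 ± 0.12 (adjusted p = 0.029), and so were the tRNAs MT-TN, MT-TC and MT-TY, which made 5 of 23 members. Of all tested genes 51.1% were called in this comparison, 22.6% as higher and 28.5% as lower. The share of members called higher was thus close to that of all tested genes, and no member was called lower. MT-CO1 was at 19622, 14647, 17547 and 19157 CPM in Telaglenastat tumors, a log2 fold change of 0.35 with a 95% interval of 0.05 to 0.66 (adjusted p = 0.051), and MT-ND1 at 2771, 1818, 3131 and 2878 CPM, a log2 fold change of 0.10 with an interval of -0.24 to 0.44.

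The Telaglenastat count moved with single libraries. Replicate 2 was the lowest Telaglenastat tumor for both of these genes, and without it 12 members were called, whereas 2, 1 and 3 were called without replicate 1, 3 and 4, and 2, 2 and 3 without replicate 1, 2 and 3 of Control. Libraries of other groups shift it through the shared estimate of spread, to 9 without Palbociclib replicate 2 and 3 without Combination replicate 2. With an offset for GC content and length no member was called.

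Combination tumors were also compared with each single drug. Against Telaglenastat, all 13 mRNAs, both rRNAs and 6 tRNAs were higher, 21 of 23 members, where 18.8% of all genes were called, 8.93% as higher and 9.89% as lower. MT-TT, which passed the filter through treated tumors, was at 0 to 0.61 CPM in Telaglenastat and 1.34 to 1.99 CPM in Combination tumors. Any call of it here is a description. The median for mRNAs was 0.88, from 0.71 for MT-ATP8 to 1.11 for MT-ND6. Against Palbociclib, all 13 mRNAs, both rRNAs and 3 tRNAs were higher, 18 of 23, where 47.6% of all genes were called, 20.1% as higher and 27.5% as lower. The median for mRNAs was 0.54, from 0.42 for MT-ND1 to 0.72 for MT-ND6. Palbociclib replicate 2 reached into the range of the Combination tumors for both rRNAs and for every mRNA except MT-ND6. Without that library 20 members were called. With an offset for GC content and length 8 were, 5 of them mRNAs.

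The change with both drugs was not shown to exceed the sum of the single changes on the log2 scale. For this non-additive part, no member was called by edgeR or by DESeq2, 1 of 23 (MT-TE) had an unadjusted p under 0.05, and 0.0673% of all genes were called, 0.0471% as positive and 0.0202% as negative. It was positive for 12 of 13 mRNAs, with a median of 0.32, and for MT-CO1 it was 0.19 with a 95% interval of -0.22 to 0.59. The contrasts with the Control group share the 3 Control tumors.

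Within the mitochondrial mRNAs, some proportions lay close together in the tumor groups and others did not. MT-CO1 made up 24.7 ± 0.92% of mRNA counts in Control, 24.8 ± 0.95% in Palbociclib, 26.8 ± 2.6% in Telaglenastat and 24.6 ± 0.67% in Combination tumors (SD). MT-ND4 stood at 15.04 ± 0.30% in Control and 15.1 ± 0.40% in Combination tumors. MT-CO2 was 8.74 to 9.13% in Control, 7.53 to 8.42% in Palbociclib, 8.08 to 9.11% in Telaglenastat and 8.21 to 8.40% in Combination tumors, so that Palbociclib and Combination tumors lay below Control. MT-ND6 went from 1.82 to 1.94% in Control to 2.28 to 2.49% in Combination tumors, with 2.00 to 2.35% in Palbociclib and 1.69 to 2.10% in Telaglenastat tumors. MT-ND1 was 4.37 to 4.46% in Control, 4.74 to 5.14% in Palbociclib, 3.74 to 4.43% in Telaglenastat and 3.94 to 4.96% in Combination tumors, so the single drugs lay on different sides of Control with an overlap for Telaglenastat. These proportions were not tested. Per kilobase, MT-ND6 had 1.18 ± 0.034 times the counts of its neighbour MT-ND5 in Control and 1.38 ± 0.083 times in Combination tumors. The 2 genes lie end to end on opposite strands, and since the sources used here do not state whether counting used strand, reads of MT-ND6 and antisense reads from MT-ND5 transcripts cannot be told apart.

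The nuclear subunits of the same complexes were called in both directions. In Combination against Control tumors, of 37 nuclear complex I genes 7 rose and 16 fell (median log2 fold change -0.18), beside 17.6% higher and 26.9% lower among all tested genes and a median of -0.04. In complex II 1 of 4 rose and 2 fell, in complex III 4 of 9 rose and 4 fell, in complex IV 4 of 11 rose and 4 fell, and in complex V 3 of 15 rose and 4 fell, with medians of -0.17, 0.05, 0.07 and -0.07. In complex I the changes were led by the accessory subunits NDUFA13 (-2.54 ± 0.24), NDUFA11 (-2.44 ± 0.28) and NDUFB7 (-1.98 ± 0.45), and in complex III by CYC1, its cytochrome c1 (-2.10 ± 0.15), and UQCRC1 (-1.69 ± 0.12). COX8A (-1.67 ± 0.20) and COX4I1 (-1.22 ± 0.11) led in complex IV, and ATP5D (-1.95 ± 0.35) and ATP5G2 (-1.27 ± 0.11) in the ATP synthase. SDHA, the flavoprotein of complex II, fell by 0.71 on the log2 scale and SDHC rose by 0.30.

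**Figure D4:**
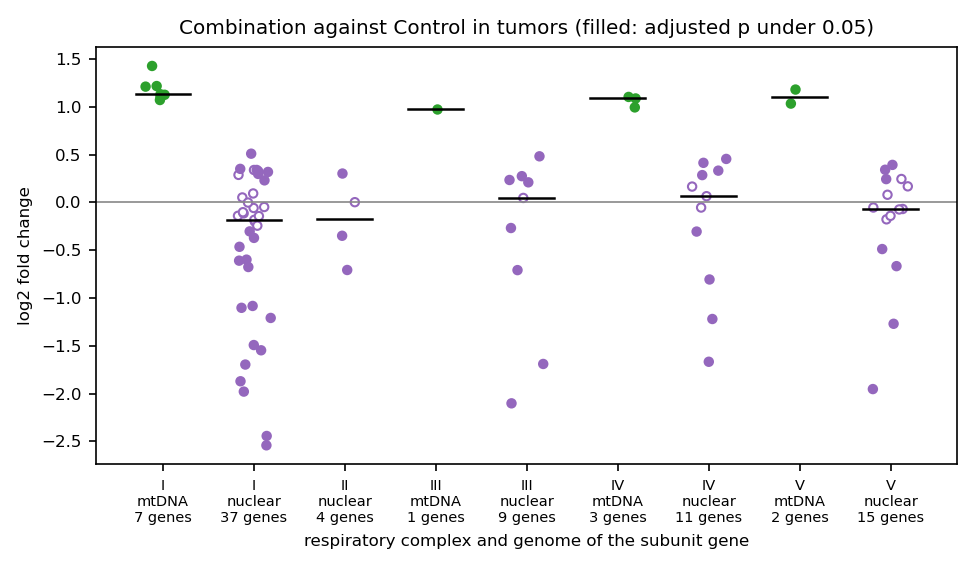
Log2 fold change in Combination against Control tumors of each tested subunit gene, by complex and by the genome that encodes it, with filled points past the adjusted p threshold and bars at the medians. All mitochondrial subunits lie between 0.98 and 1.43, whereas nuclear subunits spread from -2.54 to 0.51.

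With Palbociclib alone 0 of 37 complex I, 1 of 9 complex III and 0 of 11 complex IV genes were called, and none in complexes II and V, where 6.16% of all tested genes were. Their log2 fold changes lay between -0.36 and 0.40. With Telaglenastat alone complex I had 4 higher and 18 lower of 37, complex IV 0 higher and 5 lower of 11 and complex V 1 higher and 6 lower of 15, beside 22.6% higher and 28.5% lower among all tested genes. Complexes II and III are not given for Telaglenastat.

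Genes that make, process or degrade mitochondrial RNA were called in both directions in Combination tumors, apart from the short decay list, and these counts stand beside the same 17.6% higher and 26.9% lower among all tested genes. Of 10 transcription genes 1 rose and 2 fell: POLRMT, the mitochondrial RNA polymerase (-1.76 ± 0.26), and MRPL12, a ribosomal protein that binds it (-1.54 ± 0.15), fell, and the transcription factor TFB2M rose (0.50 ± 0.13). Of 27 RNA processing genes 8 rose and 8 fell, with FASTK (-1.62), TBRG4 (-1.22) and HSD17B10, a subunit of the RNase P that cuts the tRNA 5′ ends (-1.11), changing most. Of 6 decay genes, REXO2, an oligoribonuclease (0.69), and SUPV3L1, the helicase of the degradosome (0.37), rose and none fell. Of 18 genes for keeping mitochondrial DNA 1 rose and 7 fell, among them ATAD3A (-1.93), ATAD3B (-1.86) and the topoisomerase TOP3A (-1.001), and ATAD3A and ATAD3B are near-identical copies that can share reads. Of 8 regulators of mitochondrial biogenesis 2 rose and 4 fell, including TFEB (-1.70), PPRC1 (-1.10) and ESRRA (-1.08).

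Nuclear copies of mitochondrial sequence took some of these reads. Of 405 such pseudogenes and copies in the annotation 137 had counts, equal to 1.54% of the mitochondrial counts, and 96.5% of that fell on 3 copies on chromosome 1, which lie close together: MTATP6P1 (chr1:633696-634376), MTND2P28 (chr1:629640-630683) and MTCO1P12 (chr1:631074-632616). MTATP6P1 had 15.1 ± 0.56 counts per 100 counts of MT-ATP6 in Control and 15.1 ± 0.12 in Combination tumors, and its ratio was between 14.3 and 19.1 in all 28 libraries. MTND2P28 likewise kept to 5.08 ± 0.28 per 100 counts of MT-ND2 in Control and 5.07 ± 0.084 in Combination tumors. In Combination against Control tumors 7 of the 9 copies tested were higher and none lower, where 17.6% of all tested genes were higher and 26.9% lower. MTATP6P1 rose by 1.04 and MTND2P28 by 1.21 on the log2 scale, beside 1.04 for MT-ATP6 and 1.21 for MT-ND2. Reads of the copies and of the mitochondrial genes cannot be told apart where the sequences match.

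Other measures moved with the groups. Muscle is rich in mitochondria and can enter a xenograft library from the host, and the summed level of the 9 muscle markers was 27.2 to 70.3 CPM in Control, 5.90 to 113.6 in Palbociclib, 7.52 to 22.02 in Telaglenastat and 3.902 to 21.8 in Combination tumors, 5 of 7 tested markers falling in the Combination. The summed fibroblast markers were 165 to 205 CPM in Control and 112 to 160 in Combination tumors (2 of 6 tested lower), and the epithelial markers 2912 to 3491 and 2476 to 2777 (2 of 9 higher, 5 lower). These counts of called markers stand beside 17.6% higher and 26.9% lower among all tested genes. Leukocyte markers were at 7.10 to 9.59 and 7.06 to 10.3 CPM. Of them TYROBP was at 0, while LYZ and CSF1R had a mean of at least 1 CPM over tumors. Endothelial markers were at 3.66 to 5.01 and 2.30 to 4.63 CPM, with CDH5 at 0. ESAM had a mean of at least 1 CPM in tumors and also in cultures. In Control cultures the endothelial markers summed to 2.92 to 4.13 CPM. The 6 adipocyte markers summed to at most 0.63 CPM. For each library, the deviation of each gene from its mean over all tumors was set against GC content. The slope (log2 CPM per SD of GC) was positive in Control (0.21 to 0.22) and Palbociclib tumors (0.08 to 0.32). It was negative in Telaglenastat (-0.33 to -0.26) and Combination tumors (-0.24 to -0.14). These signs are relative to the average tumor. The mitochondrial mRNAs and rRNAs have a median GC of 44.3% against 48.0% in the genes tested in tumors. The part of these in the results was not tested beyond the GC offset given above. Results with that offset are given for the mitochondrial genes and not for the nuclear genes above. Reads of mouse mitochondrial RNA were not separated.

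The cultures asked whether the differences remained in cells grown without drug. None of 31 tested members was called by edgeR in any of the 5 comparisons among cultures, where 0% of all genes were called in 4 and 0.00715% (1 gene, lower) in Combination against Control lines. At an unadjusted p under 0.05 there was 1 of 31 for Telaglenastat against Control (MT-ND1, log2 fold change -0.42), 1 for Combination against Control (the tRNA MT-TF) and 0 for the others, and DESeq2 called none. In Combination against Control lines the median log2 fold change of the 13 mRNAs was -0.06, from -0.33 for MT-ND1 to 0.10 for MT-ND6. MT-CO1 was at 15857, 18996 and 19915 CPM in Control lines and at 19905, 17818 and 18207 CPM in Combination lines, which overlapped. It had a log2 fold change of 0.03 and a 95% interval of -0.31 to 0.37. This interval does not reach the 1.09 measured in the tumors.

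The Combination effect itself differed between tumors and cultures. In a fit of all 28 libraries the difference was called for 20 of 31 members, all positive: the 13 mRNAs, both rRNAs and 5 tRNAs, where 2.91% of all genes were called, 2.11% as positive and 0.795% as negative. The median difference of the mRNAs was 1.25 on the log2 scale. It was 1.57 ± 0.25 for MT-ND1 (adjusted p = 0.0013), 1.502 ± 0.23 for MT-RNR1 (adjusted p = 0.00078), 1.16 ± 0.23 for MT-CO1 (adjusted p = 0.0078) and 1.14 ± 0.30 for MT-CYB (adjusted p = 0.040). The number called depended on single libraries, with 13, 12 and 13 without Control tumor 1, 2 and 3, 12 without Control line 2 and 8 without Combination line 3, and it was 10 with an offset for GC content and length. For Palbociclib 1 member differed (MT-TY), where 1.39% of all genes were called, 0.356% as positive and 1.03% as negative, and for Telaglenastat 3 (MT-ND2, MT-RNR1 and MT-RNR2), where 34.1% were, 15.6% as positive and 18.5% as negative.

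**Figure D5:**
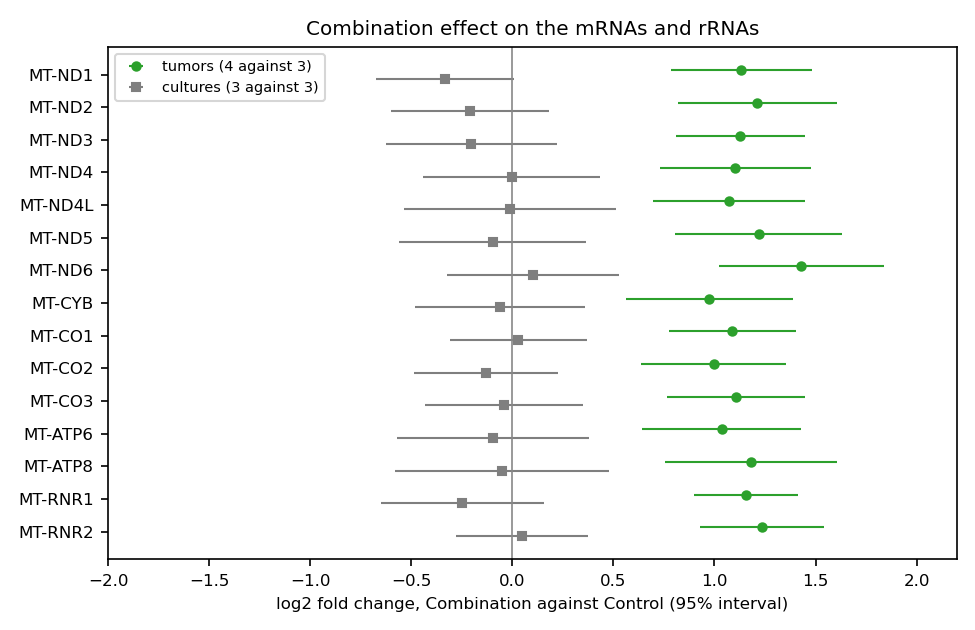
Log2 fold change of Combination against Control with its 95% interval for the 13 mRNAs and 2 rRNAs, in tumors (green circles, 4 against 3) and in cultures (grey squares, 3 against 3). The tumor values lie between 0.98 and 1.43 and the culture values between -0.33 and 0.10.

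Control cultures also differed from Control tumors. Of 31 members 16 were higher and none lower, where 45.9% of all genes were called, 22.8% as higher and 23.1% as lower: 6 mRNAs, MT-RNR2 and 9 tRNAs. Of the 16 tRNAs tested here, 8 did not pass the filter in tumors alone and entered through the cultures, where they are high, so their direction was largely fixed by the filter and their calls are a description. MT-ND2 (0.73 ± 0.21), MT-ND1 (0.71 ± 0.18), MT-CO2 (0.66 ± 0.19), MT-ATP8 (0.66 ± 0.25), MT-CO1 (0.54 ± 0.17) and MT-CO3 (0.54 ± 0.19) were called, whereas MT-ND4L (0.51), MT-ATP6 (0.49), MT-ND4 (0.41), MT-ND3 (0.24), MT-ND5 (0.17, 95% interval -0.30 to 0.64), MT-ND6 (0.06, -0.39 to 0.51) and MT-CYB (-0.07, -0.53 to 0.38) were not. The difference between genes was not tested. As a share of mRNA counts MT-CYB was 6.69 to 7.56% in Control tumors and 4.68 to 4.86% in Control cultures, and over all groups 5.55 to 7.56% in tumors and 4.42 to 5.29% in cultures, without overlap. MT-RNR2 rose by 0.91 ± 0.16 and MT-RNR1 by 0.34 ± 0.17 (adjusted p = 0.095), and MT-RNR1 counts per 100 MT-RNR2 counts were 26.1 ± 0.53 in Control tumors and 17.8 ± 1.8 in Control cultures.

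Plus-strand tRNAs made the widest gap. Per 1000000 mRNA counts, they stood at 61.2 ± 27.9 in Control tumors and 276 ± 42.6 in Control cultures, while minus-strand tRNAs were at 1946 ± 155 and 2151 ± 159. MT-TL1, which follows MT-RNR2, was at 0.21, 0.73 and 0.96 CPM in Control tumors and 3.56, 6.14 and 5.70 CPM in Control cultures, and MT-TV, between the rRNA genes, was at 0, 0 and 0.24 CPM against 2.29, 3.20 and 2.42 CPM. Across treatments the plus-strand sum was 29.2 to 85.4 in the 16 tumors and 145 to 372 in the 12 cultures. Tumor and culture libraries differ in growth conditions and in host cells at once, and these cannot be told apart.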

How the data were processed

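Poly(A) RNA with an RNA integrity number over 8 was made into strand-specific libraries with 60-base single-end reads. Per the labels, CASAVA 1.8 and STAR were used with hg38. The authors deposited whole-number counts of reads per gene without normalization. The annotation release and the strand setting of counting are not given in the sources used here. Of the gene IDs, 57940 matched GENCODE release 29 and 0.0287% of counts did not match. Tumors and cultures were fitted separately, and all 28 libraries together for contrasts between them, with edgeR 4.0.16 in R 4.3.3 (filterByExpr minimum count 10, TMM, glmQLFit, glmQLFTest, prior count 2), which left 14848, 13985 and 15466 genes. Adjusted p is Benjamini-Hochberg over all tested genes, called under 0.05. SEs were derived from the fold change and F, and CPM used TMM-scaled sizes. Group shares were described without a test. DESeq2 1.42.0, other scalings, filters, a GC and length offset (spline, 5 degrees of freedom), replicate blocks and leaving out each library were alternatives. The fits were tested on simulated data. Members and gene lists were chosen with earlier results of these data known. All mRNAs, rRNAs and filter-passing tRNAs are named; from other lists up to 3 called genes with the largest change in Combination tumors are named.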

Additional observations from a re-analysis of the deposited data

Results flagged for a closer look

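Within groups of 4 or 5 tumors, 18 of 57 values tested had a library whose gap to the nearest other passed Dixon's 95% limit. All 18 were replicate 2 of Palbociclib or of Telaglenastat. Chance flags about 1 in 20 independent values. The values here share libraries and move together, so the 18 cannot be set against that rate. In Palbociclib replicate 2 the share of counts was 13.6% for all 37 genes (8.28 to 9.58% in the other tumors of the group), 11.4% for mRNAs, 2.26% for rRNAs and 0.0286% for tRNAs. In the same library MT-ND3 was at 1843 CPM, MT-ND4 at 17505, MT-ND6 at 2544, MT-CYB at 8237, MT-CO3 at 16577, MT-ATP6 at 12494 and MT-RNR2 at 19288 CPM. In Telaglenastat replicate 2 the share was 6.23% for all genes (8.91 to 9.07% in the others) and 5.01% for mRNAs, with MT-ND2 at 2117 CPM, MT-ND6 at 806, MT-CO2 at 3862, MT-CO3 at 6611 and MT-ATP6 at 4441 CPM.

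The effect of the same treatment differed between tumors and cultures by the interaction term for 20 members with the Combination, 3 with Telaglenastat and 1 with Palbociclib. For the Combination the log2 difference, tumors minus cultures, was 1.57 for MT-ND1, 1.52 for MT-ND2, 1.43 for MT-ND3, 1.21 for MT-ND4, 1.19 for MT-ND4L, 1.42 for MT-ND5, 1.43 for MT-ND6, 1.14 for MT-CYB, 1.16 for MT-CO1, 1.23 for MT-CO2, 1.25 for MT-CO3, 1.23 for MT-ATP6, 1.34 for MT-ATP8, 1.502 for MT-RNR1 and 1.29 for MT-RNR2. For Telaglenastat it was 0.82 for MT-ND2, 0.75 for MT-RNR1 and 0.60 for MT-RNR2, and for Palbociclib 1.73 for MT-TY.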

How the results depend on the processing

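The 23 calls in Combination against Control tumors ranged from 20 to 25 over the other settings and from 21 to 23 with each library left out, and all 390 values of the 13 mRNAs and 2 rRNAs under these settings kept their direction and side of the threshold, so the calls lost were of tRNAs. For Palbociclib against Control, 7 members were called with the replicate number as a block, 7 with the replicate block and a GC and length offset, 8 with 1 fit of all 28 libraries, and 5 to 17 with each library left out. For Telaglenastat against Control, 9 were called with DESeq2 size factors, 9 with mitochondrial genes left out of the library sizes, 18 with all genes of at least 1 count, 9 with only the groups compared, 0 with the GC offset with or without the block, and 1 to 12 with each library left out. For Combination against Palbociclib, 8 were called with the GC offset and 2 with the replicate block and the GC offset. In the cultures, 1 was called for Combination against Control with all genes of at least 1 count, and 0 to 5 for Combination against Telaglenastat with each library left out, the 5 without Telaglenastat replicate 1. The nuclear denominator moved the ratio of Combination to Control shares to 2.18.

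For the difference of effects between tumors and cultures, Palbociclib gave 3 with DESeq2, 2 with library totals, 11 with all genes of at least 1 count, 2 with only the groups compared, 0 with the replicate block and GC offset, and 0 to 2 with each library left out. Telaglenastat gave 9 with all genes of at least 1 count, 1 with the GC offset with or without the block, and 0 to 12 with each library left out, the 12 without Telaglenastat line 1 and 10 without Telaglenastat tumor 2, and 0 without Control line 2 or Telaglenastat line 2. The Combination gave 10 with the GC offset with or without the block and 8 to 21 with each library left out.

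None of the reversed values passed the threshold. MT-CYB in Telaglenastat against Control tumors was -0.0057 with the GC offset, -0.013 with block and GC offset, and -0.043 to 0.23 with each library left out. In Control cultures against Control tumors, MT-ND3 was -0.10 with the GC offset and -0.0997 with block and GC offset, and MT-ND5 -0.027 with library totals. MT-ND6 was -0.13 with library totals, -0.047 with mitochondrial genes left out, -0.058 with all genes of at least 1 count, -0.18 with the GC offset, -0.16 with block and GC offset and -0.077 to 0.20 with each library left out, and MT-CYB ranged from -0.19 to 0.037. Library totals moved the median of all genes from -0.04 to -0.14 in Combination against Control tumors. The causes were not tested.

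The replicate numbers did not pair the samples: none of 21 same-numbered tumor pairs and 3 of 18 culture pairs correlated above 0.1, and 6 of 15 tumors and 1 of 12 cultures correlated best with their own number. Few counts limit the plus-strand tRNAs, and strand, host reads and nuclear copies were not resolved.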

Other observations

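In the cultures, Telaglenastat replicate 3 had mRNA proportions unlike the other lines. MT-ND4 made up 11.2% of its mitochondrial mRNA counts and MT-ATP6 7.27%, against 13.6 to 15.1% and 9.61 to 10.5% in the other 11 lines, and its MT-ND6 level per kilobase was 2.00 times that of MT-ND5, against 1.06 to 1.28 times in the other lines. No cause was tested.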
